A study of Mus musculus with 14 samples.

Results

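The genes described here are 41 mouse genes that mark the endothelial cells lining blood and lymph vessels or carry the signals by which vessels form. They were taken as a list of gene symbols, drawn up with earlier results of these data known, and all 41 were found among the 49315 genes of the spleen count table and the 18603 genes of the ovary table. Poly(A) RNA libraries, 1 per animal, were made from spleen (4 wild-type and 4 L2-fKO animals) and ovary (3 and 3). L2-fKO animals were Zfp36l2-/-;CMV-Cre animals, labelled L2-cKO in the sample records, in which Cre removed the floxed exon of *Zfp36l2* in every tissue and in the germ line. The wild-type controls were littermates with intact *Zfp36l2* alleles that carried the same CMV-Cre transgene, so Cre is shared by the groups. By the labels, 2 wild-type spleens were from females and 2 from males, against 1 female and 3 males among the L2-fKO spleens, and all ovaries were from females. The ages of the sequenced animals are not given in the labels, which also name the spleens "Spleen Organoid". The study describes the spleens as those of pups in the first days after birth. It reports that L2-fKO pups had anemia and pancytopenia and died within weeks of birth. For the sequenced ovaries it says only that the animals were age-matched. L2-fKO spleen 3 and L2-fKO ovary 1 came from the same animal.

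Vascular endothelial growth factor (VEGF) ligands act on tyrosine kinase receptors of the endothelial surface, with neuropilins as co-receptors, and drive the sprouting of vessels. Angiopoietins act on a second receptor, Tie2. Angiopoietin 1 keeps endothelium quiet, and angiopoietin 2, stored and released by the endothelium itself, opposes it and loosens vessels for remodelling. The spleen filters blood through its red pulp, while the adult ovary grows and loses vessels as follicles mature. ZFP36L2 is an RNA-binding protein that binds AU-rich elements in 3′UTRs and speeds the decay of the mRNAs that hold them, and *Vegfa* mRNA is a textbook example of a transcript with such elements.

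The 7-base element UAUUUAU was found in the longest annotated 3′UTR of 13 of the 41 genes, or 31.7%, against 29.5% of the spleen genes tested that have an annotated 3′UTR. Its 5-base core AUUUA, which every UAUUUAU contains, was found in 31 of the 41, or 75.6%, against 69.9%. The sites are shown for the genes described in full, because the study reports that ZFP36L2 bound short RNA probes holding UAUUUAU. Only the mRNA strand was searched, and a match is a description and not a binding site. Each window is 30 bases of mRNA, 5′ to 3′, taken from the GENCODE release M21 transcripts, with the element in capitals.
*Clec14a*: ucaaaugcacaUAUUUAUguacaugcauag
*Vegfa* site 1: uuaauuucaacUAUUUAUgagauguaucuc
*Vegfa* site 2: uuguuaucauuUAUUUAUuggugcuacugu
*Vegfa* site 3: uccguaguacaUAUUUAUuuuuaaacagca
*Kdr*: uauggcacaucUAUUUAUagucuguuaugu
*Flt1* short transcript: guuauaaugcuUAUUUAUuugaaacuuggu
*Angpt1* site 1: caucuuucuuaUAUUUAUauguguucauaa
*Angpt1* site 2: uuguuuucaguUAUUUAUaauaaagcagua
In GRCm38 these windows lie, all on the minus strand, at chr12:58265507-58265536 for *Clec14a*, at chr17:46017594-46017623, chr17:46017165-46017194 and chr17:46017062-46017091 for *Vegfa*, at chr5:75933163-75933192 for *Kdr*, at chr5:147638580-147638609 for *Flt1*, and at chr15:42425214-42425243 and chr15:42424874-42424903 for *Angpt1*. The *Flt1* window lies in the 3′UTR of a shorter annotated transcript that ends within the gene, which was the longest 3′UTR annotated, and not in that of the full-length receptor mRNA. The *Vegfa* elements start at bases 1246, 1675 and 1778 of a 3′UTR of 1865 bases, so 2 of the 3 lie near its end. *Podxl*, *Cdh5*, *Sox17*, *Stab1*, *Stab2*, *Flt4*, *Ephb4*, *Vegfb* and *Angpt2*, also described in full, hold no UAUUUAU in the 3′UTR examined.

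Depth was even, with 39138010 to 45167464 counts on genes per spleen library and 31052510 to 44270070 reads, recovered from the normalized values, per ovary library. *Zfp36l2* itself stood at 277.7 to 405 normalized counts in L2-fKO spleens against 4362 to 7394 in wild type, and at 758 to 1011 against 4745 to 4906 in the ovary, or 5.91% and 19.1% of the wild-type mean. Spleen lymphocyte markers were well expressed, the 7 B cell markers summing to 13765 to 70531 normalized counts in wild type and 14659 to 38575.0 in L2-fKO, and the 7 T cell markers to 3472 to 9035 and 4252 to 9021, and no gene of either list was called in the spleen (in the ovary 1 T cell marker, *Cd4*, was called higher, at 2.12 ± 0.23, limma, adjusted p = 0.00933). In the ovary, the 9 oocyte markers summed to 112313 to 114416 in wild type and 102497 to 119022 in L2-fKO. The 9 granulosa and theca markers summed to 82423 to 96048 and 38521 to 88937, with no gene of either list called. One library stands apart for the genes described here: 39 of the 41 genes had their highest L2-fKO spleen value in L2-fKO spleen 4. Wild-type spleen 3 held the lowest wild-type value for 27. Without L2-fKO spleen 4, the spleen log2 fold change moved by over 1.5 times for 19 of the 41 genes and changed sign for 1, *Nrp2*. None of the 19 had an adjusted p below 0.05 with all libraries.

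In the wild-type spleen, compared per length as normalized counts per kilobase of exon and scaled to library size as FPKM are, *Plvap*, which forms the diaphragms of fenestrated endothelium, had the highest level of the 41 genes, 112.5 ± 29.5 (SD, n = 4), followed by *Cldn5*, a tight junction protein, at 55.0 ± 11.9. Neither overlapped the gene below it. From there on all neighbours in the order overlapped other than *Vegfa* and *Kdr*, with *Cdh5* at 19.6 ± 2.06, *Stab2* at 18.9 ± 0.334 and *Sox18* at 18.6 ± 4.84, down to *Emcn* at 0.698 ± 0.18 and *Lyve1* at 0.34 ± 0.106. In the wild-type ovary *Podxl* came first, at 38.5 ± 3.37 (SD, n = 3), followed by *Cdh5* at 30.1 ± 1.66 and *Ephb4* at 29.9 ± 1.58, which overlapped, and *Stab2* came last at 0.14 ± 0.0537. The 2 tables were normalized separately, so levels are ordered within an organ and not tested between them. The sinusoid gene *Stab2* was thus among the 4 highest of these genes in the spleen and the lowest in the ovary, and VE-cadherin (*Cdh5*) ranked high in both.

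L2-fKO was compared with wild type in the spleen and in the ovary, and the effects of the organs with each other. A gene was called when its Benjamini-Hochberg adjusted p over all genes tested was below 0.05 and its absolute log2 fold change was above 1. All 41 genes passed the filter on low values in both organs, with a lowest read count of 19 in a spleen library and 14 in an ovary library. In bulk tissue, a change in the number of endothelial cells and a change in RNA per cell cannot be told apart.

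In the L2-fKO spleen, 3 of the 41 genes were called higher (*Podxl*, *Clec14a* and *Angpt2*) and none lower by edgeR's quasi-likelihood test. Over the 16911 genes tested, 2.9% were called higher and 3.11% lower, against 7.32% and 0% of these genes. At an adjusted p below 0.05 alone, 14 were higher, or 34.1% against 6.89% of all genes tested, and 2 were lower, or 4.88% against 6.51%. The 14 were *Podxl*, *Clec14a*, *Cdh5*, *Adgrl4*, *Ecscr*, *Ptprb*, *Nos3*, *Flt4*, *Ephb4*, *Vegfa*, *Vegfc*, *Flt1*, *Nrp1* and *Angpt2*, and the 2 were *Vegfb* and *Angpt1*. The 8 libraries did not overlap for 17 genes that were higher in L2-fKO, or 41.5% against 9.61% of all genes, and for 2 that were lower, or 4.88% against 10.8%. The median log2 fold change of the 41 was 0.51, with 34 above 0, beside a median of -0.02 over all genes tested, and it was 0.31 without L2-fKO spleen 4. It was 0.35 without wild-type spleen 3 and 0.39 with sex in the model. The count past adjusted p and higher was also 14 when L2-fKO spleen 4 was left out, with *Stab1* past the limit (adjusted p = 0.0479) and *Ptprb* not (0.0667), but it was 9 when either L2-fKO spleen 1, L2-fKO spleen 2 or wild-type spleen 2 was, and 6 when wild-type spleen 4 was. In the male libraries alone (2 against 3) it was 9, and 6 genes were called. With sex in the model the count was 11, and 2 genes were called higher. *Podxl*, *Clec14a*, *Ephb4*, *Vegfb*, *Flt1*, *Nrp1*, *Angpt1* and *Angpt2* had an adjusted p below 0.05 under each of the 15 alternative settings tried.

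**Figure D1:**
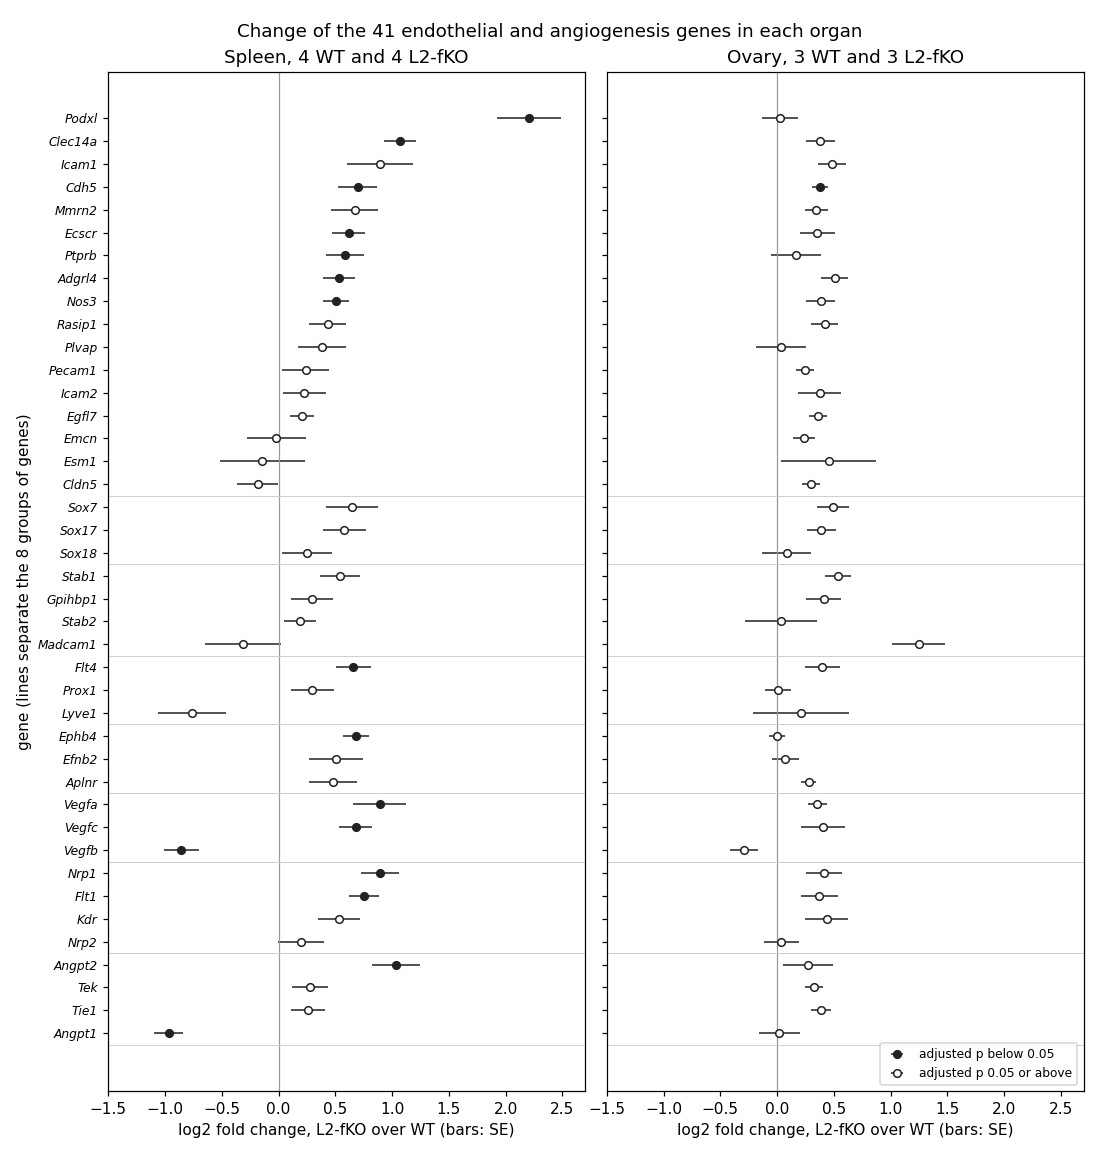
The log2 fold change of L2-fKO over wild type (x axis) with its standard error for each of the 41 genes (y axis, in 8 groups), in the spleen on the left and the ovary on the right, with filled points where the adjusted p was below 0.05. In the spleen 16 points are filled and spread from -0.97 for *Angpt1* to 2.21 for *Podxl*, while in the ovary only *Cdh5* is filled and most points lie between 0 and 0.54.

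The largest change among the genes of the endothelial surface, junction and cytoplasm was that of *Podxl* (chr6:31519488-31563981, GRCm38, minus strand), which encodes podocalyxin, a sialylated surface protein of endothelium, kidney podocytes and blood progenitors. Its normalized counts were 1199.6, 1567, 2797 and 1091 in wild-type spleens 1 to 4 and 7746, 7818, 8887 and 6262 in L2-fKO spleens 1 to 4. The lowest L2-fKO spleen was far above the highest wild-type spleen, and L2-fKO spleen 4, the highest for most of these genes, was here the lowest of its group. By edgeR the spleen difference was 2.21 ± 0.28 on the log2 scale (SE, adjusted p = 0.00117), and 2.29 without L2-fKO spleen 4. In the ovary the counts were 7389, 8657 and 7554 in wild type and 7975, 10003 and 6333 in L2-fKO. The ovary groups overlapped fully, with a log2 fold change of 0.02 ± 0.16 (limma, adjusted p = 0.958).

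*Clec14a* (chr12:58264720-58269290, minus strand), a C-type lectin of sprouting endothelium with 1 UAUUUAU, had normalized counts of 1173, 899, 837 and 884 in wild-type spleens and 1837, 1776, 2142 and 2209 in L2-fKO spleens. Every L2-fKO spleen was above every wild-type spleen. On the log2 scale edgeR put the difference at 1.07 ± 0.14 (adjusted p = 0.00116), and it lay between 1.01 and 1.19 under the alternatives. Its ovary counts were 1707, 1566 and 1337 in wild type and 2169, 2133 and 1707 in L2-fKO, touching at the highest wild-type ovary, with a log2 fold change of 0.38 ± 0.13 (limma, adjusted p = 0.199).

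*Cdh5* (chr8:104101625-104144511, plus strand), encoding VE-cadherin, the adhesion protein of endothelial junctions, was the only gene of the 41 with an adjusted p below 0.05 in both organs. Its normalized counts were 3831, 3822, 3033 and 3627 in wild-type and 4909, 5261, 4988 and 8047 in L2-fKO spleens. L2-fKO spleens 1 to 3 lay close together above wild type and L2-fKO spleen 4 well above them. This gave a log2 fold change of 0.70 ± 0.17 (edgeR, adjusted p = 0.0261), and of 0.50 without L2-fKO spleen 4 (adjusted p = 0.0127). The adjusted p was not below 0.05 without wild-type spleen 2, without wild-type spleen 4 or in males alone, where it reached 0.081 at most. In the ovary the counts were 4580.1, 5011 and 4544 in wild type and 6245, 6194 and 5909 in L2-fKO, without overlap. The ovary log2 fold change was 0.38 ± 0.07 (limma, adjusted p = 0.0423), and with any 1 ovary other than L2-fKO ovary 2 left out the adjusted p was above 0.05, up to 0.216, at log2 fold changes of 0.35 to 0.42.

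Of the other 14 genes of this group, 4 had an adjusted p below 0.05 in the spleen by edgeR. They were *Ecscr*, an endothelial chemotaxis receptor (0.62 ± 0.14, adjusted p = 0.0213), *Ptprb*, the phosphatase VE-PTP (0.58 ± 0.17, 0.0482), *Adgrl4*, an adhesion receptor (0.53 ± 0.14, 0.0349), and *Nos3*, endothelial nitric oxide synthase (0.51 ± 0.12, 0.0207). Wild-type spleen 1 was above L2-fKO spleen 1 for *Ptprb*, and the groups of the other 3 genes did not overlap. Over the 15 alternatives the adjusted p was below 0.05 in 10 for *Ecscr*, 10 for *Nos3*, 6 for *Adgrl4* and 4 for *Ptprb*. *Icam1*, a leukocyte adhesion ligand, and *Mmrn2*, a matrix ligand of CLEC14A, had log2 fold changes of 0.89 ± 0.29 and 0.67 ± 0.21 with adjusted p of 0.0693 and 0.061. Several of the usual marker genes did not pass the test in the spleen: *Pecam1* (0.24 ± 0.21), *Icam2* (0.22 ± 0.19), *Egfl7* (0.21 ± 0.11), *Plvap* (0.38 ± 0.21), *Rasip1* (0.43 ± 0.16), *Emcn* (-0.02 ± 0.26), *Esm1* (-0.14 ± 0.38) and *Cldn5* (-0.19 ± 0.18), with adjusted p of 0.107 to 0.972. Without L2-fKO spleen 4 *Pecam1* was at 0.10 and *Icam2* at 0.06. The ends of the group lay far apart: *Podxl* averaged 1663 ± 783 normalized counts in wild type and 7678 ± 1079 in L2-fKO, and *Cldn5* 3378 ± 728 and 2970.1 ± 512 (SD, n = 4 each). In the ovary all 17 log2 fold changes were above 0, from 0.02 to 0.51, and 10 of the genes did not overlap between groups (over all ovary genes 13.2% were higher without overlap), but none other than *Cdh5* had an adjusted p below 0.05.

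**Figure D2:**
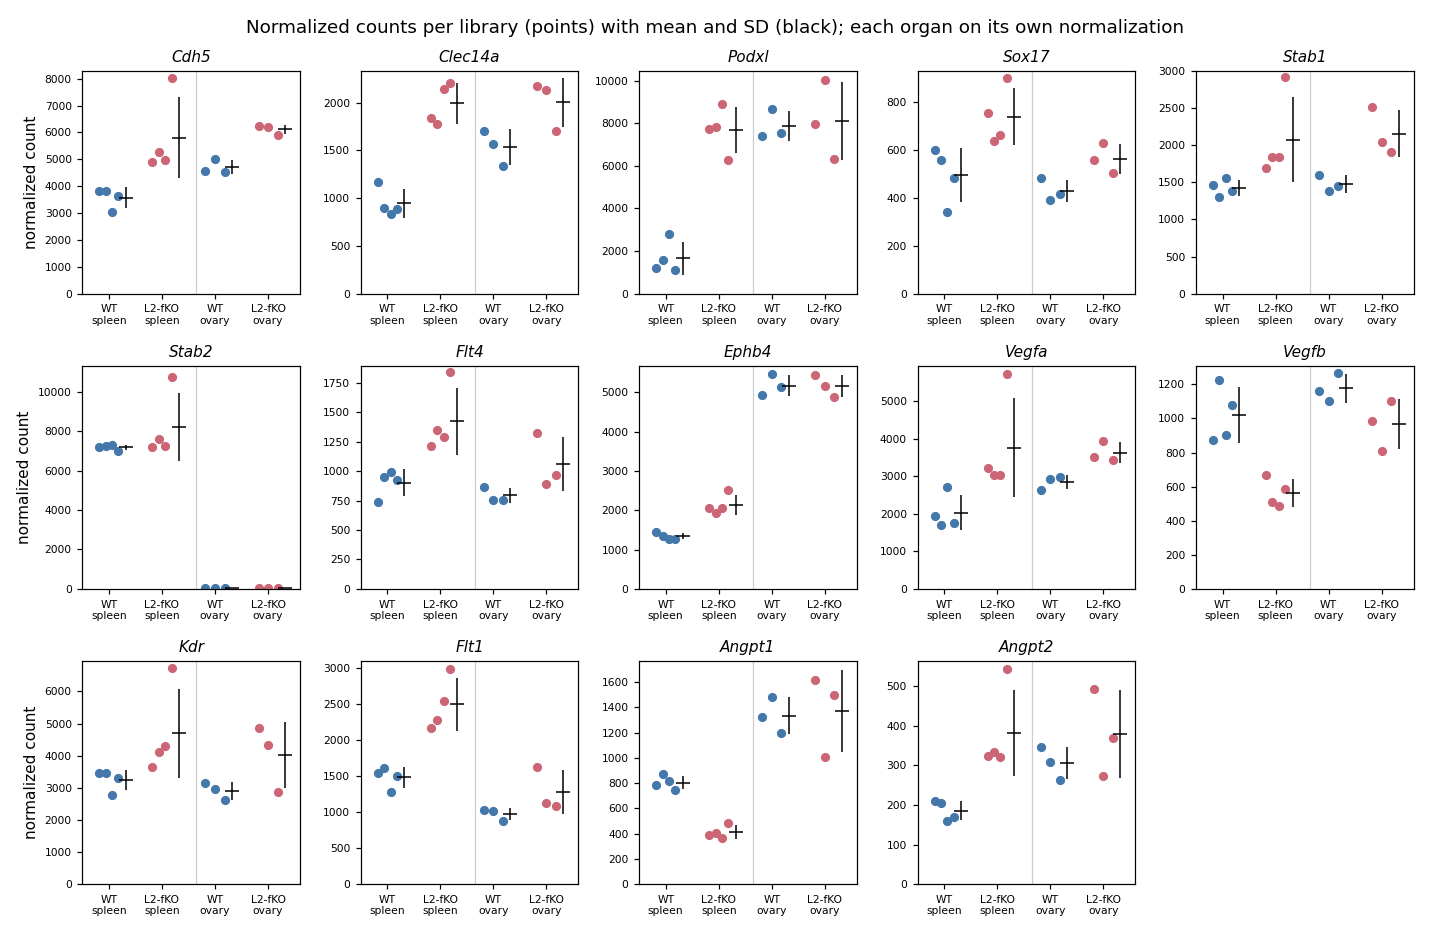
Normalized counts (y axis, linear, from 0) of the 14 genes described in full, 1 panel per gene, with 1 point per library in blue for wild type and red for L2-fKO and the mean and SD in black. Every gene shown other than *Stab2* separates the spleen groups in every library. L2-fKO spleen 4 is the high red point for *Cdh5*, *Stab2*, *Vegfa*, *Kdr* and *Angpt2*.

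The SoxF transcription factors *Sox7*, *Sox17* and *Sox18* switch on endothelial and arterial genes. None passed the test in either organ. *Sox17* (chr1:4490931-4497354, minus strand), with the lowest adjusted p of the 3 in the spleen, had 599, 558, 339.9 and 482 normalized counts in wild-type and 756, 636, 664 and 902 in L2-fKO spleens. The libraries did not overlap, with a log2 fold change of 0.58 ± 0.19 (edgeR, adjusted p = 0.0747). In the ovary its counts were 482, 393 and 416 in wild type and 558, 628 and 504 in L2-fKO, again without overlap, with 0.39 ± 0.13 (limma, adjusted p = 0.197). *Sox7* had log2 fold changes of 0.65 ± 0.23 in the spleen and 0.49 ± 0.14 in the ovary, and *Sox18* of 0.25 ± 0.22 and 0.08 ± 0.22.

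Sinusoid, marginal sinus and capillary genes gave no call in the spleen. *Stab2* (chr10:86841198-87008025, minus strand), encoding stabilin 2, the scavenger receptor of sinusoids, had 7201, 7254, 7294 and 7008 normalized counts in wild type and 7213, 7596, 7269 and 10783 in L2-fKO spleens. L2-fKO spleens 1 to 3 lay among or just above the wild-type spleens while L2-fKO spleen 4 stood out, with a log2 fold change of 0.19 ± 0.14 (edgeR, adjusted p = 0.399) that was 0.03 without that library. In the ovary *Stab2* was scarce, at 36.5, 66.0 and 34.9 in wild type and 42.9, 38.0 and 55.8 in L2-fKO (0.04 ± 0.32, limma, adjusted p = 0.964). *Stab1* (chr14:31139013-31168641, minus strand), encoding stabilin 1, which is also made by macrophages, had 1458, 1301, 1553 and 1389 in wild-type and 1688, 1848, 1838 and 2922 in L2-fKO spleens. These groups did not overlap but missed the threshold, at 0.54 ± 0.17 (edgeR, adjusted p = 0.0679). Without L2-fKO spleen 4 the value was smaller, 0.33, and past the threshold (adjusted p = 0.0479), and it was also past it with DESeq2 (0.0268) and with no filter (0.0342). Its ovary counts were 1604, 1378 and 1452 in wild type and 2511, 2039.6 and 1915 in L2-fKO, also apart, at 0.54 ± 0.12 (limma, adjusted p = 0.0758).

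*Madcam1*, the addressin of marginal sinus endothelium to which lymphocytes bind, had the largest ovary difference of the 41 genes and is described for that reason, seen in the values. Its ovary counts were 20.7, 26.7 and 21.1 in wild type and 54.6, 56.5 and 54.7 in L2-fKO, so few reads but no overlap, with a log2 fold change of 1.25 ± 0.24 (limma, adjusted p = 0.0539). It was called with a pseudocount of 8 (1.04, adjusted p = 0.0431) and by DESeq2 on recovered reads (1.27, adjusted p = 0.00893), and not with edgeR on those reads. In the spleen the sign was opposite, -0.31 ± 0.34 (edgeR, adjusted p = 0.577), from counts of 244 to 641 in wild type and 267 to 644 in L2-fKO that overlapped throughout. The difference between the organs was not past the threshold (edgeR interaction, adjusted p = 0.08). *Gpihbp1*, which holds lipoprotein lipase on capillaries, had log2 fold changes of 0.29 ± 0.18 in the spleen and 0.41 ± 0.15 in the ovary, with adjusted p of 0.319 and 0.24.

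Among the 3 lymphatic genes, *Flt4* (chr11:49609263-49652739, plus strand), encoding VEGF receptor 3, the receptor for VEGF-C, was the one past the adjusted p limit. It had 737, 952, 994 and 927 normalized counts in wild-type and 1216, 1352, 1291 and 1840.1 in L2-fKO spleens, with no overlap. Its difference was 0.66 ± 0.16 on the log2 scale (edgeR, adjusted p = 0.0226), and 0.51 without L2-fKO spleen 4. The adjusted p was above 0.05 in males alone (0.0671) and when wild-type spleen 2 (0.0561), wild-type spleen 4 (0.0648) or L2-fKO spleen 2 (0.0523) was left out. In the ovary, 865, 759.6 and 758 in wild type lay below 1322, 892 and 967 in L2-fKO, at 0.40 ± 0.15 (limma, adjusted p = 0.254). The lymphatic transcription factor *Prox1* had log2 fold changes of 0.30 ± 0.19 and 0.01 ± 0.11. *Lyve1*, a hyaluronan receptor of lymphatic endothelium, had -0.76 ± 0.30 in the spleen (adjusted p = 0.125) from 30.2 to 59.6 counts in wild type and 21.05 to 35.8 in L2-fKO, and 0.21 ± 0.42 in the ovary. The *Flt4* effects of the organs did not differ past the threshold (edgeR interaction, adjusted p = 0.566).

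The arterial ligand ephrin B2 (*Efnb2*) and its venous receptor EphB4 (*Ephb4*) sort arteries from veins, and the apelin receptor (*Aplnr*) is borne by venous and sprouting endothelium. *Ephb4* (chr5:137350109-137378669, plus strand) had 1436, 1355, 1278 and 1269 normalized counts in wild-type spleens and 2059.6, 1928, 2049 and 2518 in L2-fKO spleens. The groups were tight and far apart, with a log2 fold change of 0.68 ± 0.11 (edgeR, adjusted p = 0.00424) that stayed between 0.59 and 0.73 under the alternatives. In the ovary, where the gene was at 4923, 5463 and 5129.8 in wild type and 5449, 5151 and 4882 in L2-fKO, the groups lay on top of each other, at -0.00 ± 0.07 (limma, adjusted p = 0.986). *Efnb2* had log2 fold changes of 0.51 ± 0.24 in the spleen and 0.07 ± 0.12 in the ovary. Those of *Aplnr* were 0.48 ± 0.21 and 0.28 ± 0.06, with the ovary libraries apart and an adjusted p of 0.0905.

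The VEGF ligands moved in opposite directions in the spleen. *Vegfa* (chr17:46016993-46032369, minus strand), the main ligand of blood vessel growth and the holder of 3 UAUUUAU elements, had 1937, 1711, 2711 and 1747 normalized counts in wild-type and 3229.8, 3026, 3042 and 5728 in L2-fKO spleens. All L2-fKO spleens were above all wild-type spleens, and L2-fKO spleen 4 was far above the rest. edgeR gave 0.89 ± 0.24 on the log2 scale (adjusted p = 0.0347), and 0.61 without L2-fKO spleen 4 (adjusted p = 0.0295). It was not past the limit without wild-type spleen 1, 2 or 4, without L2-fKO spleen 1, with sex in the model or with the replicate number as a block (0.0706), with adjusted p of up to 0.105. In the ovary, *Vegfa* was at 2631, 2920.4 and 2972 in wild type and 3509, 3943 and 3436 in L2-fKO, apart but with an adjusted p of 0.0925 (limma, 0.35 ± 0.08).

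*Vegfb* (chr19:6982473-6987651, minus strand), a ligand of VEGF receptor 1 that acts more on metabolism than on sprouting, had 871, 1223, 904 and 1077 normalized counts in wild-type and 666, 512, 486 and 587 in L2-fKO spleens. Every L2-fKO spleen was below every wild-type spleen, L2-fKO spleen 4 included. Its log2 fold change was -0.86 ± 0.15 (edgeR, adjusted p = 0.0064), from -0.97 to -0.76 under the alternatives. In the ovary it was at 1159.6, 1104 and 1269 in wild type and 986, 811 and 1101 in L2-fKO, again lower without overlap, at -0.29 ± 0.12 (limma, adjusted p = 0.292), and the effects of the organs did not differ past the threshold (edgeR interaction, adjusted p = 0.153). *Vegfc*, the ligand of VEGF receptor 3, rose in the spleen from 259.7 to 332 to 403 to 535 normalized counts (0.68 ± 0.14, edgeR, adjusted p = 0.0137) and missed the adjusted p limit without wild-type spleen 4 and with the replicate number as a block, the latter giving the higher value (0.0591). Its ovary value was 0.40 ± 0.19 (limma, adjusted p = 0.338).

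Of the receptors, *Flt1* (chr5:147561604-147726011, minus strand), encoding VEGF receptor 1, which binds VEGF-A and VEGF-B and has a soluble decoy form, had 1538, 1605, 1272 and 1504 normalized counts in wild-type and 2159.8, 2275, 2546 and 2989 in L2-fKO spleens. The groups did not overlap, with a log2 fold change of 0.75 ± 0.13 (edgeR, adjusted p = 0.00543). In the ovary, 1029, 1019 and 873 in wild type stood against 1625, 1128 and 1081 in L2-fKO, at 0.37 ± 0.16 (limma, adjusted p = 0.307). *Kdr* (chr5:75932827-75978458, minus strand), encoding VEGF receptor 2, the main signalling receptor, had 3445, 3459, 2778 and 3311 in wild-type and 3662, 4111, 4289 and 6739.5 in L2-fKO spleens. These did not overlap either, but the difference rested more on L2-fKO spleen 4, with a log2 fold change of 0.53 ± 0.18 (edgeR, adjusted p = 0.0867) that was 0.31 without that library. Ovary counts of *Kdr* were 3158, 2950.5 and 2609 in wild type and 4849.7, 4339 and 2862 in L2-fKO, overlapping, at 0.44 ± 0.19 (limma, adjusted p = 0.298). Neuropilin 1 (*Nrp1*) rose in the spleen from 1255 to 1460.0 in wild type to 1957 to 3377 in L2-fKO (0.89 ± 0.17, edgeR, adjusted p = 0.00827), and neuropilin 2 (*Nrp2*) had 0.20 ± 0.20 (adjusted p = 0.548), and -0.05 without L2-fKO spleen 4. In the ovary they had 0.41 ± 0.16 and 0.04 ± 0.15 (limma, adjusted p = 0.261 and 0.927).

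The angiopoietins also parted. *Angpt1* (chr15:42424723-42676977, minus strand), with 2 UAUUUAU elements, had 784, 869, 814 and 748 normalized counts in wild-type and 386, 407, 363 and 487 in L2-fKO spleens. The L2-fKO mean, 411 ± 53.9 (SD, n = 4), was 0.51 of the wild-type mean, 804 ± 51.2, with no overlap and a log2 fold change of -0.97 ± 0.13 (edgeR, adjusted p = 0.00136). Just short of the fold limit with all libraries, *Angpt1* was called lower without L2-fKO spleen 4 (-1.06, adjusted p = 0.000592) or without wild-type spleen 4 (-1.001, adjusted p = 0.00547). In the ovary its counts were 1325, 1484 and 1193 in wild type and 1619.5, 1006 and 1497 in L2-fKO, fully overlapping, at 0.02 ± 0.18 (limma, adjusted p = 0.968).

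*Angpt2* (chr8:18690263-18741562, minus strand) had 210.3, 204, 159 and 171 normalized counts in wild-type and 325, 333, 323 and 545 in L2-fKO spleens, again with every L2-fKO spleen above every wild-type spleen. Its log2 fold change was 1.04 ± 0.21 (edgeR, adjusted p = 0.0115). It was below the fold limit, with the adjusted p still under 0.05, when L2-fKO spleen 4 (0.81, adjusted p = 0.008), wild-type spleen 3 (0.97, 0.0231) or wild-type spleen 4 (0.997, 0.0444) was left out and with sex in the model (0.99, 0.0253). In the ovary, 346, 310.0 and 263 in wild type overlapped 495, 272 and 370.1 in L2-fKO, at 0.27 ± 0.22 (limma, adjusted p = 0.582). The Tie receptors *Tek* (Tie2) and *Tie1* had log2 fold changes of 0.27 ± 0.16 and 0.26 ± 0.15 in the spleen (edgeR, adjusted p = 0.29 and 0.295) and of 0.32 ± 0.08 and 0.39 ± 0.09 in the ovary (limma, adjusted p = 0.108 and 0.091).

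Since a ratio of 2 genes within a library does not depend on its scaling, ratios were taken after the opposite directions had been seen, as a description with no test. The reads of *Angpt2* per read of *Angpt1* were 0.268, 0.235, 0.195 and 0.228 in wild-type spleens and 0.841, 0.82, 0.889 and 1.12 in L2-fKO spleens. The ratio was thus 0.232 ± 0.0299 in wild type and 0.917 ± 0.138 in L2-fKO (SD, n = 4), L2-fKO spleen 4 being the highest. In the ovary it was 0.23 ± 0.0272 and 0.274 ± 0.0293 (SD, n = 3), with overlap. For *Vegfa* to *Vegfb*, the spleens stood at 2.22, 1.4, 2.998 and 1.62 in wild type and 4.85, 5.91, 6.26 and 9.75 in L2-fKO. The ovaries stood at 2.27, 2.65 and 2.34 and at 3.56, 4.86 and 3.12, so that this ratio was higher without overlap in both organs. For *Vegfc* to *Vegfb*, 0.288 ± 0.0387 in wild-type spleens stood against 0.833 ± 0.107 in L2-fKO spleens, and 0.282 ± 0.0418 against 0.457 ± 0.0556 in the ovaries. In the spleen, each of these ratios set a gene higher without overlap over a gene lower without overlap, so the ratios had to separate. The same holds for *Vegfa* to *Vegfb* in the ovary. Of the 6 ratios taken, the other 3, *Vegfa* to *Kdr*, *Podxl* to *Cdh5* and *Clec14a* to *Cdh5*, overlapped between groups in both organs.

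**Figure D3:**
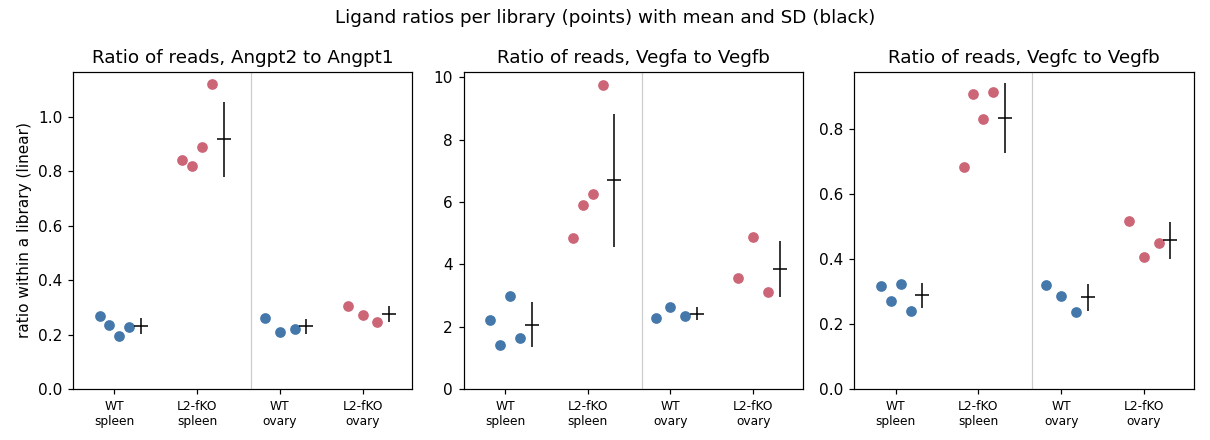
Ratios of reads within each library (y axes, linear, from 0) for *Angpt2* to *Angpt1*, *Vegfa* to *Vegfb* and *Vegfc* to *Vegfb*, with 1 point per library in blue for wild type and red for L2-fKO and the mean and SD in black. The *Angpt2* to *Angpt1* ratio separates the spleen groups, 0.195 to 0.268 against 0.82 to 1.12, and overlaps in the ovary, while both ratios to *Vegfb* are higher in every L2-fKO library of both organs.

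In the ovary as a whole, 0 of the 41 genes were called by limma in either direction, beside 0.73% of the 18504 genes tested called higher and 0.227% called lower. One gene, *Cdh5*, had an adjusted p below 0.05, or 2.44% against 1.23% of all genes for higher ones. At an unadjusted p below 0.05 there were 23 of the 41, or 56.1% against 16.8% of all genes. edgeR on the recovered reads gave 0 calls as well and DESeq2 on them 1, *Madcam1*, and the adjusted p alone was below 0.05 for 1 and 12 genes by these tools. Without 1 ovary, limma gave 0 genes past the adjusted p, or 2 where L2-fKO ovary 2 was the one left out. The differences were small and nearly all of 1 sign: 39 of 41 log2 fold changes were above 0, with a median of 0.35 beside -0.00 for all genes tested. For 20 genes the L2-fKO ovaries lay above the wild-type ovaries without overlap, or 48.8% against 13.2% of all genes, and for 1, *Vegfb*, below, or 2.44% against 12.0%. L2-fKO ovary 1 was the highest of its group for 27 of the 41, and the median was 0.27 without it.

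The genotype effect differed between the organs for 3 of the 41 genes, by an interaction term in edgeR over the 15310 genes tested in both, of which 6.68% had an adjusted p below 0.05. The share of the 41, 7.32%, is near that of all genes, so the count is no result about the 41 as a group. This fit was added after the values had been seen. The spleen effect minus the ovary effect was 2.19 ± 0.36 for *Podxl* (adjusted p = 0.00251), 0.70 ± 0.14 for *Ephb4* (adjusted p = 0.00978) and -0.997 ± 0.22 for *Angpt1* (adjusted p = 0.015). *Clec14a* just missed the threshold, at 0.70 ± 0.20 (adjusted p = 0.0514). *Angpt1* had an adjusted p of 0.0519 without wild-type ovary 3, and 4 genes passed when L2-fKO spleen 4, wild-type spleen 1 or wild-type spleen 3 was left out. The same animal gave L2-fKO spleen 3 and L2-fKO ovary 1, which the fit treats as separate. All ovaries were female and the spleens were of both sexes, and the fit held no sex term. It also joined deposited spleen counts with recovered ovary reads. A difference between the organs therefore cannot be told apart from one of sex mix or of data source.

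**Figure D4:**
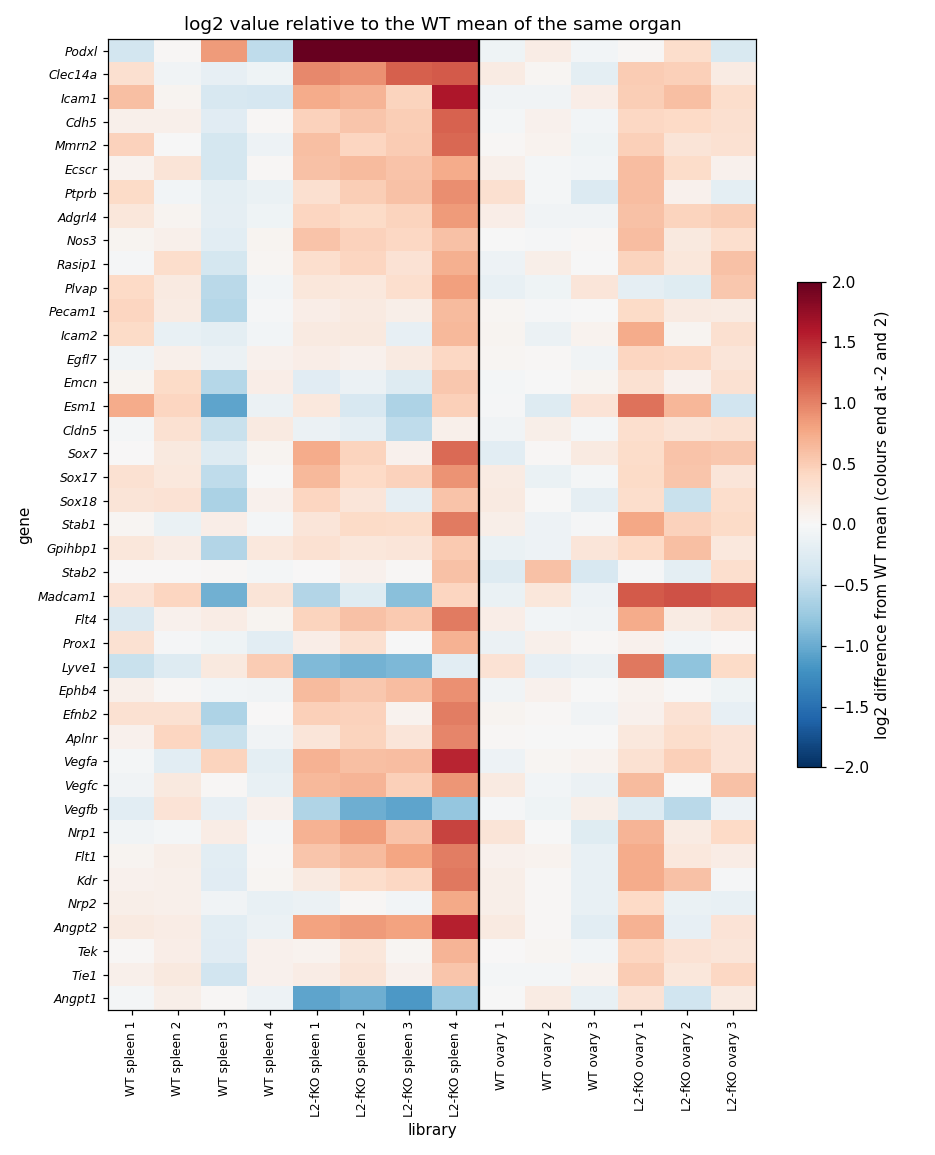
The log2 value of each gene (rows, in the same order as the plot of fold changes) in each of the 14 libraries (columns), relative to the wild-type mean of the same organ, with red above and blue below and the colours ending at -2 and 2. L2-fKO spleen 4 is the reddest column, the rows of *Angpt1* and *Vegfb* are blue in all 4 L2-fKO spleens, and *Madcam1* is red in the 3 L2-fKO ovaries.

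By the UAUUUAU element, the 13 genes that hold it had a median spleen log2 fold change of 0.53, from -0.97 to 1.07, with 6 higher and 1 lower at an adjusted p below 0.05. The 28 that lack it had a median of 0.41, from -0.86 to 2.21, with 8 higher and 1 lower. Over all spleen genes tested 6.89% were higher and 6.51% lower at that limit. *Flt1* was counted among the 13, and among the 6 higher, by the 3′UTR of its shorter transcript. Whether the element has a part in these changes was not tested. In the ovary the medians were 0.37 and 0.35.

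A further list held 51 other genes of endothelium. In the spleen 49 were tested, 3 were called higher and 3 lower, and at an adjusted p below 0.05 alone 11 were higher and 4 lower, with a median log2 fold change of 0.35. The 4 largest of those called were *Selp* (-3.06 ± 0.31), the adhesion protein P-selectin of endothelium and platelets, *Gja5* (1.73 ± 0.31), the arterial gap junction protein connexin 40, *Bmx* (-1.53 ± 0.30), a kinase of arterial endothelium and blood cells, and *Pgf* (1.28 ± 0.25), placental growth factor, a further ligand of FLT1 (edgeR, adjusted p of 0.000376, 0.00618, 0.0107 and 0.00969). The other 2 were *Vwf* (-1.03 ± 0.18), the von Willebrand factor of endothelium and platelets, and *Cyyr1* (1.03 ± 0.21). In the ovary all 51 were tested, and 1 was called, the Notch ligand *Jag1* (1.52 ± 0.08, limma, adjusted p = 0.000642), with a median of 0.26 over the list.

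Hypoxia raises *Vegfa* through HIF proteins, so a list of 30 symbols of hypoxia-responsive genes was read beside it. Of 27 tested in the spleen none was called, and 4 had an adjusted p below 0.05 and were higher: *Epas1* (0.80 ± 0.21), *Hif1a* (0.78 ± 0.12), *Vldlr* (0.62 ± 0.14) and *Eno1* (0.55 ± 0.11), by edgeR with adjusted p of 0.0339, 0.00304, 0.0171 and 0.00965. Over all spleen genes tested 6.89% were higher at an adjusted p below 0.05. The median of the list was 0.19, and whether hypoxia had a part in the change of *Vegfa* was not tested. *Epas1* and *Hif1a* encode the HIF alpha subunits, which hypoxia acts on mainly as proteins. In the ovary 27 were tested, none was called, and *Pfkfb3*, a regulator of glycolysis, was higher at an adjusted p of 0.0301 (limma, 0.83 ± 0.13). Over all ovary genes tested 1.23% were higher at an adjusted p below 0.05.

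Markers of other cells also changed in the spleen, some lists higher and some lower, and their part in the results was not tested. Of 17 megakaryocyte and platelet markers, 16 were called lower, among them *Gp6* (-6.41 ± 0.30), *Treml1* (-6.39 ± 0.39) and *Ppbp* (-6.06 ± 0.36) by edgeR (adjusted p of 8.84e-06, 1.82e-05 and 1.49e-05), and the list summed to 47471 to 83897 normalized counts in wild type and 11943 to 22497 in L2-fKO. *Angpt1* and *Vegfb* were also lower in these spleens, and no link between them and these markers was tested. Of 12 pericyte and smooth muscle markers, 4 were called higher, *Rgs5* (3.06 ± 0.38), *Abcc9* (1.52 ± 0.15), *Pdgfrb* (1.15 ± 0.13) and *Kcnj8* (1.10 ± 0.18), and none lower (adjusted p of 0.000906, 0.000276, 0.000548 and 0.00379), and the list summed to 21557 to 28066 and 36344 to 41270.3. The contractile genes of the same list, *Acta2* (0.09) and *Cnn1* (-0.11), had log2 fold changes near 0.

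Of 15 fibroblast and reticular stroma markers, 14 were tested and *Lum* (1.90 ± 0.21) and *Pdgfra* (1.59 ± 0.20) were called higher (edgeR, adjusted p of 0.000501 and 0.00104), with sums of 73481 to 81693 and 82408 to 118715. Of 16 macrophage markers, 15 were tested and none was called, but 14 log2 fold changes were above 0, *Adgre1* (0.87) and *Mertk* (0.79) had an adjusted p below 0.05, and the list summed to 63269 to 110779 in wild type and 100555 to 180565 in L2-fKO. The 12 erythroid markers gave no call and summed to 512606 to 624278 and 488982 to 1014264. Median spleen log2 fold changes were 0.50 for macrophage, 0.36 for pericyte, 0.32 for fibroblast and 0.19 for erythroid markers, beside 0.51 for the 41 genes. They were -4.19 for megakaryocyte, -0.52 for B cell and -0.26 for T cell markers. A shift above 0 was thus not particular to the endothelial genes. In the ovary, no megakaryocyte, macrophage, pericyte, fibroblast or erythroid marker was called. At an adjusted p below 0.05 alone (limma) *Pdgfrb* (0.63), *Notch3* (0.59), *Cxcl12* (0.40) and *Hmox1* (0.91) were higher there, and 14 of 15 macrophage markers had log2 fold changes above 0, with sums of 10915 to 11377 in wild type and 11776 to 17201 in L2-fKO. Of the 17 megakaryocyte markers 12 were tested in the ovary. Median ovary log2 fold changes were 0.68 for macrophage, 0.15 for megakaryocyte, 0.11 for pericyte, 0.08 for fibroblast and -0.08 for erythroid markers. That of the 41 genes was 0.35.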

How the data were processed

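Poly(A) libraries of 8 spleens and 6 ovaries were analysed. For the spleen the authors trimmed reads with Trimmomatic 0.36, aligned them to GRCm38 with STAR 2.5.2b and took strand-specific counts of uniquely placed exonic reads (featureCounts, Subread 1.5.2). Whole-number counts were deposited. For the ovary the deposited values are a normalized signal, counts divided by 1 size factor per library, held beside the authors' DESeq2 comparison; the authors' fold changes and p-values in both comparison tables were not used, and neither were the normalized spleen values. All ovary values were whole multiples of a library's step (100% within 0.001 of a read), so reads were recovered.

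Spleen counts were tested with edgeR 4.0.16 (quasi-likelihood, TMM) on genes that reached 10 counts in 4 or more libraries. Printed spleen values are counts scaled by TMM to the mean library. The edgeR test returns no standard error. Those printed for the spleen and the interaction are the absolute log2 fold change divided by the square root of the F statistic. Ovary values were tested with limma 3.58.1 (trend) on log2(value + 1), on genes that reached 10 in 3 or more libraries, so fold changes of low genes are understated. Fits ran in R 4.3.3, DESeq2 1.42.0 being an alternative, and tables in Python 3.11.15. On simulated data, all 200 changed genes (log2 fold of 2) were recovered for the spleen (0 false calls of 17056 genes) and the ovary (3 of 18470). The simulation gave all genes of an organ the same dispersion and held no outlying library. Smaller changes, such as most of those reported here, were not simulated, so it does not show how well they are found. Adjustment was by Benjamini-Hochberg over all genes tested. Separate animals are the replicates; every pair of libraries of a group differed by more than counting noise.

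Annotation was GENCODE M21, which gives a 3′UTR for all 41 genes. Exonic bases of 12 of them overlap another gene, for 3 (*Egfl7*, *Rasip1* and *Nrp1*) on the same strand. The number 3 is on 2 wild-type spleens, of which the male was numbered 4. Full values were given for genes called in either organ, for the gene of each group with the lowest adjusted p in the spleen, and for *Cdh5*, *Kdr*, *Stab2* and *Vegfa*; of the other lists, for up to 4 called genes with the largest change, other names being chosen after their values were seen. 1 gene that this rule names is not reported here. The members and lists were chosen with earlier results of these data known. Alternatives were another normalization, filter, pseudocount, tool, sex, the replicate block and each library left out.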

Additional observations from a re-analysis of the deposited data

Results flagged for a closer look

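Among the 4 libraries of a spleen group, a library far from the other 3 (by Dixon's gap ratio) was found in 11 of the 82 groups of values examined, where chance flags about 1 in 20, or 4.1. Of these, 10 are high values in L2-fKO spleen 4, with normalized counts of 7439 for *Pecam1*, 8047 for *Cdh5*, 230.2 for *Emcn*, 1551 for *Adgrl4*, 2922 for *Stab1*, 10783 for *Stab2*, 35.81 for *Lyve1*, 5728 for *Vegfa*, 1042 for *Nrp2* and 544.9 for *Angpt2*. The other is a low value in wild-type spleen 3, 359.8 for *Gpihbp1*. The values share a library and are not independent flags.

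The genotype effect differed between spleen and ovary, by the interaction term, for *Podxl* (spleen minus ovary 2.19), *Ephb4* (0.70) and *Angpt1* (-0.997), all on the log2 scale. That is 3 of 41 genes, near the share over all genes.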

How the results depend on the processing

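In the spleen 38 of the 41 genes and in the ovary 30 kept the sign of their log2 fold change under all alternatives (15 and 12), and no gene past the limit changed sign. Of the 16 spleen genes past the adjusted p limit, 8 stayed past it in all 15. The spleen count called higher, 3, was 6 in males alone and 14 with adjusted p as the only limit, and that called lower, 0, was then 2; leaving out 1 library gave 2 to 4 higher and 0 to 1 lower. The count past adjusted p and higher, 14, was 9 in males alone and 6 to 15 with 1 library left out. In the ovary, 0 called higher became 1 with DESeq2 on recovered reads, 1 with a pseudocount of 8 and 1 with adjusted p as the only limit. The 1 past adjusted p became 12 with DESeq2 and 2 with a pseudocount of 8, and was 0 to 2 with 1 library left out, when the median of the 41 was 0.27 to 0.36. Males alone and left-out libraries mean fewer samples; the cause of the other changes was not tested. Counts past adjusted p alone, medians and the comparison of organs were put through these alternatives after seeing the data, and the organ count of 3 was 2 to 4 with 1 library left out.

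Same-numbered animals did not deviate together throughout (r of -0.15, 0.10, 0.18 and -0.31 in the spleen and 0.38, 0.21 and 0.07 in the ovary; wild-type ovary 3 correlated best with L2-fKO ovary 2), so the numbers were not taken to pair them. The study describes the spleens as age-matched pairs, but no source used here says which animals form a pair. With the replicate block, 8 spleen genes rather than 14 were past adjusted p and higher, and 4 ovary genes rather than 1. With it 3 spleen genes and 0 ovary genes were called higher, and none lower. The lowest read count of any of the 41 genes in a library was 19 in the spleen and 14 in the ovary, and what depth limits was not tested.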
